A study of Drosophila melanogaster with 88 samples.

Results

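The 10 genes described here were Achl, CG11313, CG43402, CG34134, CG11893, CG34456, CG16926, CG40472, NimC1 and S-Lap1. They are 10 of the 17830 gene features counted in male fly heads, and they were picked by symbol for large differences between heads in which the transcription factor gene kay was manipulated in glia and the matching driver control. Those differences chose the genes, so in the kay series their values are a description and carry no test, and no threshold was given for the choice. What was tested is how the same genes behaved in plain genotypes, which the choice did not use.

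The study sequenced the 3′ ends of polyadenylated RNA in 88 Drosophila melanogaster libraries, in 22 groups of 4. The kay series holds 32 male head libraries at days 5 and 15. Its driver control, VAPP58SRepo, combines the ALS-linked P58S form of the ER membrane protein VAP with Repo-Gal4, which drives transgenes in most glia. The other 3 arms add to that background a kay knockdown (VAPP58SRepo_KayKD), wild-type kay overexpression (VAPP58SRepo_KayWT) or overexpression of a construct named KaySCR (VAPP58SRepo_KaySCR), whose sequence the labels do not describe. Every one of these 4 groups therefore carries both VAP P58S and the glial driver. The plain series holds 24 male head libraries of VAPWT or VAPP58S flies without the driver, at days 5, 15 and 20. Female heads and female guts of VAPWT and VAPP58S, at days 5 and 20, gave 16 libraries each. The labels give neither the parental stocks of the crosses nor the way in which VAP was expressed, and do not state whether a group's 4 libraries stem from different sets of flies. The p-values below therefore measure the spread between these libraries, which may be technical.

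kay encodes the fly Fos protein, which pairs with the Jun protein encoded by Jra to form the transcription factor AP-1. AP-1 acts downstream of the JNK kinase cascade in stress, wound and immune responses, and in glia it takes part in the response to neuronal injury. The 10 genes are not a pathway. NimC1 encodes a phagocytosis receptor on the surface of hemocytes, the blood cells of the fly. S-Lap1 is a sperm leucyl aminopeptidase gene expressed in testis, and Achl (achilles) is a clock-controlled gene that acts in neurons. CG11313 encodes a predicted serine protease, and CG11893 lies in a cluster of genes of the ecdysteroid kinase-like (EcKL) family. CG40472 is listed in RefSeq with the synonym ND-AGGGL, after the mitochondrial complex I subunit ND-AGGG, and the roles of the other 4 genes are left unstated here.

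All 10 genes are annotated as protein coding, and they are spread over 4 chromosome arms of the dm6 assembly. Achl lies at 2R:14420324-14424764 and CG16926 at 2R:19500295-19501418. CG43402 lies at 2L:1442627-1443832, CG34134 at 2L:8190297-8190781 and NimC1 at 2L:13973158-13976769. CG34456 is at 3L:9362108-9362734, S-Lap1 at 3L:8617235-8619474 and CG40472 at 3L:24927130-24927710. CG11893 spans 3R:25289889-25291366 and CG11313 spans 3R:30729837-30731165. CG34456 overlaps the oppositely oriented gene Klp67A, and CG16926 overlaps the oppositely oriented CG15120. Because no source used here states the counting settings, reads of these overlapping pairs may not be fully separable.

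Levels are given as CPM, counts scaled to a library of 1e+06 gene reads with TMM factors over all 56 male libraries, as mean ± SD with n = 4 unless stated. Depth on genes ran from 2.48 to 16.5 M reads (M for 1e+06) in the plain series and from 1.21 to 15.0 M in the kay series, so that a count of 0 allows up to 1.21 CPM and 2.49 CPM in the shallowest library of each. In whole heads, fewer cells of a type and less RNA per cell cannot be told apart.

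The manipulated gene was checked first. In the driver control kay stood at 208 ± 10.6 CPM on day 5 and 270 ± 12.0 on day 15. In the knockdown it stood at 198 ± 16.5 and 262 ± 54.8, with log2 differences from the driver of -0.06 (SE 0.12, adjusted p = 0.833) and -0.05 (SE 0.11, adjusted p = 0.916) in edgeR's quasi-likelihood test. With wild-type kay it was 231 ± 22.5 on day 5 and 275 ± 26.5 on day 15. Only the KaySCR arm at day 5 passed the test, with 297 ± 29.0 CPM and a log2 difference of 0.49 (SE 0.11, adjusted p = 0.014). The KaySCR level on day 15, 293 ± 35.1, gave an adjusted p of 0.937. The reads come from whole heads, so kay RNA of all other head cells is counted with that of glia. A transgene with a 3′ end other than that of kay would not be counted, and the 3′ ends of the constructs are not given in the labels. The level of kay in glia alone was not measured. The KaySCR call at day 5 was lost without replicate 3 of the driver (adjusted p = 0.0613) or without replicate 4 of KaySCR (adjusted p = 0.06).

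Across the 3 arms and both days the 10 genes were mostly higher than in the driver control. All 4 KayKD libraries lay above all 4 driver libraries for 7 genes on day 5 and 6 on day 15, where 3.12% and 3.69% of all 9796 tested genes did so. For KayWT the counts were 7 and 6 (background 5.68% and 4.58%), and for KaySCR 6 and 8 (background 3.91% and 4.25%). Achl was wholly below the driver in KayWT and in KaySCR on day 5 (background 4.0% and 2.66%). No gene of the 10 was wholly below it in KayKD on either day (background 3.5% and 3.8%), in KayWT on day 15 (4.13%) or in KaySCR on day 15 (3.6%). These counts restate the choice of the genes, and the 3 arms share their driver libraries. All 10 genes passed the low-count filter of the kay series, CG11313 through the KayKD libraries alone.

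**Figure D1:**
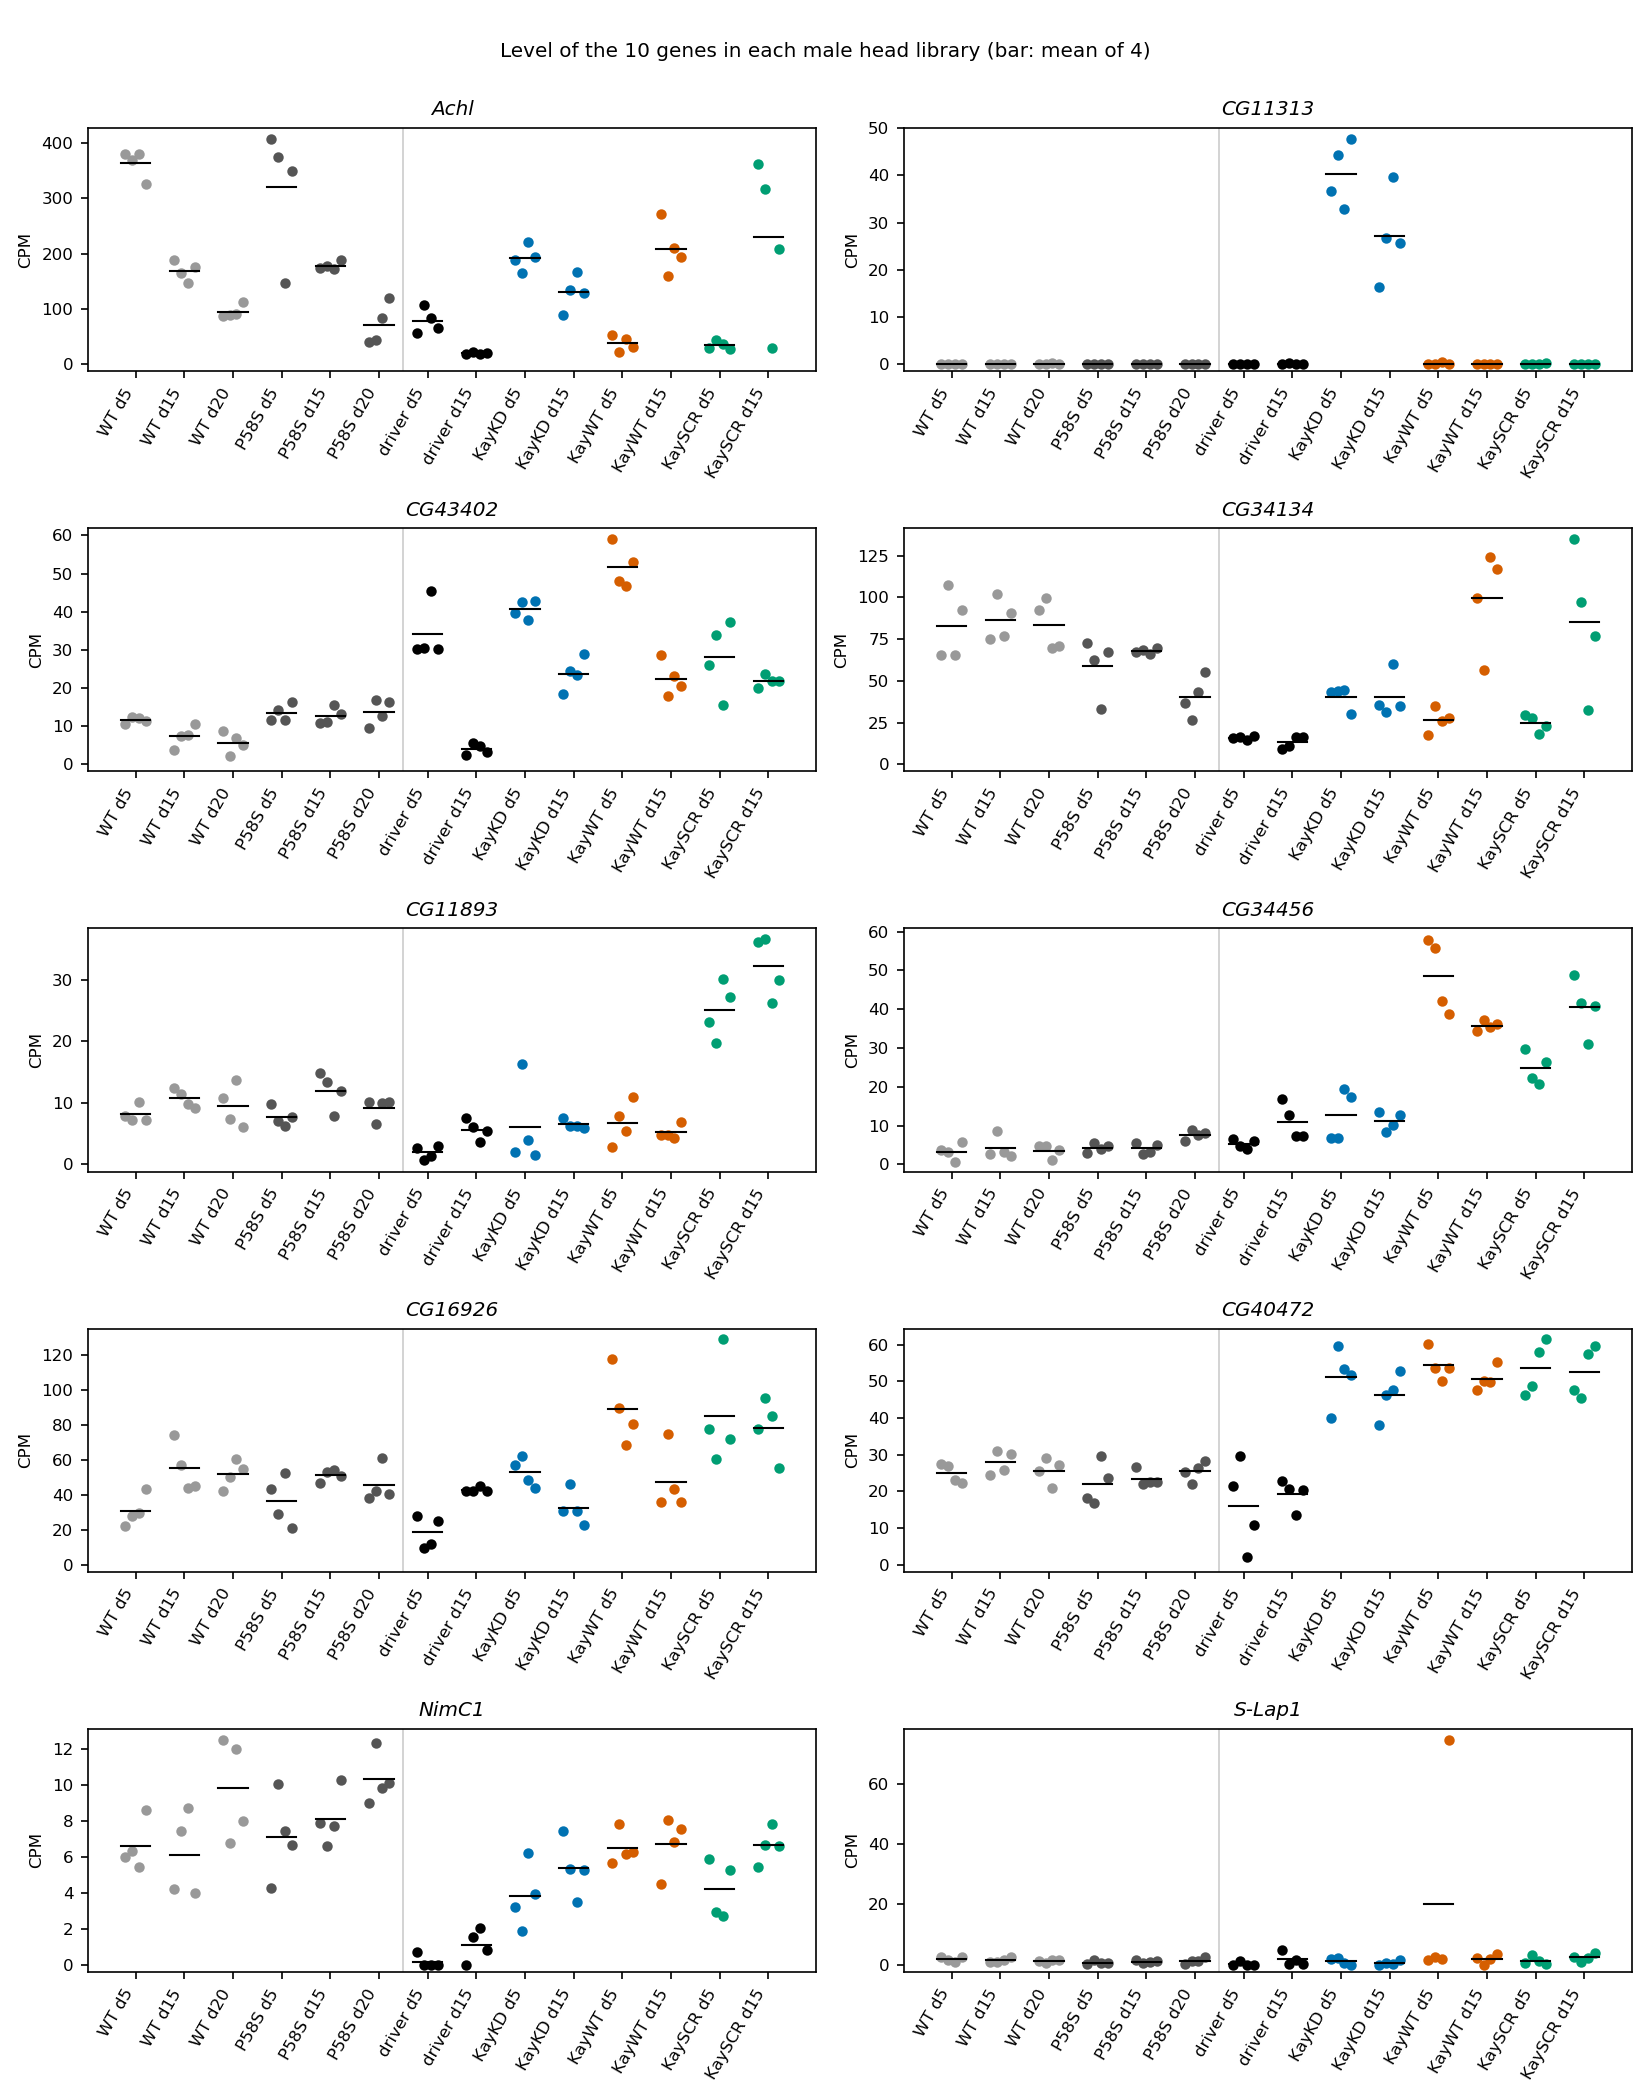
Level of each of the 10 genes in the 56 male head libraries. The y axis is CPM on a linear scale, each point is 1 library, and the bar is the mean of 4; the grey line separates the plain genotypes (left) from the kay series (right). CG11313 is read in KayKD, NimC1 is lowest in the driver control, and 1 S-Lap1 library stands at 74.5 CPM.

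CG11313, the predicted serine protease gene, was read in essentially 1 genotype. On day 5 the 4 KayKD libraries held 36.6, 44.3, 33.0 and 47.7 CPM (590 reads). On day 15 they held 16.3, 26.8, 39.6 and 25.6 CPM (533 reads). Every other male library held 0 to 2 reads of it, so the KayKD libraries and all others did not overlap. On day 5 the driver held 0 reads. With 3 reads over the 4 driver libraries taken as the floor, the ratio of KayKD to the driver had a lower bound of 190. On day 15 the driver held 1 read, and the ratio of 643 rests on that read. Its 95% exact counting interval ran from 115 to 25429. Both values are a description, since this difference chose the gene. In plain heads CG11313 had 2 reads in VAPWT and 1 in VAPP58S, both at day 20, and it did not pass the filter there, so no difference between these genotypes could be tested. Female heads and guts held no read of CG11313.

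NimC1 differed in another way: the driver control was the group that stood apart. On day 5 the driver libraries held 0.705, 0, 0 and 0 CPM (5 reads in all), and on day 15 0, 1.55, 2.04 and 0.814 CPM. Day 5 arms held 3.82 ± 1.83 CPM in KayKD, 6.49 ± 0.945 in KayWT and 4.22 ± 1.62 in KaySCR. On day 15 they held 5.41 ± 1.63, 6.76 ± 1.59 and 6.65 ± 0.99. No arm library overlapped the driver of its day. The plain heads held 4.01 to 12.5 CPM over 24 libraries and overlapped the arms. VAPWT stood at 6.61 ± 1.41 CPM on day 5 and 6.11 ± 2.35 on day 15, and VAPP58S at 7.11 ± 2.39 and 8.15 ± 1.55. The driver mean was 0.0248 of the plain VAPP58S mean on day 5 and 0.135 of it on day 15.

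Other hemocyte genes did not share this pattern as a list. The summed level of 10 hemocyte markers other than NimC1 ran from 241 to 299 CPM in the driver on day 5 and from 286 to 324, 262 to 287 and 275 to 306 in KayKD, KayWT and KaySCR. Hml, a defining hemocyte gene, averaged 45.1 CPM in the day 5 driver and 35.4 to 62.4 in the day 5 arms. Of 9 tested markers, 2 rose in KayKD at day 5 (PPO1 by a log2 difference of 1.69, SE 0.42, and PPO2 by 0.96, SE 0.24), both prophenoloxidase genes of crystal cells. In KayWT at day 5 PPO1 rose by 1.79 and PPO2 by 1.13, while Ppn, a matrix protein gene, fell by 0.83. In KaySCR at day 5 Pxn, which encodes peroxidasin, rose by 0.88. PPO2 in KayWT held its call in all 8 fits that left out 1 library, whereas the other 5 calls were each lost in 1 to 5 of these 8 fits. At that day 3.58%, 5.59% and 2.6% of all genes were called in the 3 arms. On day 15 edgeR called 0 of the 9 in each arm, with 0, 1 and 1 at an unadjusted p under 0.05, and DESeq2 also called 0. Of 10 tested Nimrod family genes and relatives other than NimC1, edgeR and DESeq2 called 0 in any arm on either day, with 0 to 2 at an unadjusted p under 0.05.

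Achl lay on opposite sides of the driver at the 2 days in KayWT and KaySCR, below it on day 5 and above it on day 15. In the day 5 driver Achl stood at 56.7, 107, 83.3 and 65.0 CPM, and on day 15 at 18.7, 20.9, 18.4 and 19.4. The knockdown held 189, 165, 222 and 194 CPM on day 5 and 89.0, 134, 167 and 129 on day 15, above the driver on both days. With wild-type kay Achl was below the driver on day 5, at 52.9, 21.0, 44.9 and 31.1 CPM. On day 15 it was above it, at 272, 159, 210 and 193 CPM, and the ratio of the day 15 to the day 5 mean was 5.56. KaySCR libraries held 29.2, 43.3, 35.7 and 28.0 CPM on day 5 and 362, 317, 29.6 and 208 on day 15. Replicate 3 of the KaySCR arm at day 15 was thus at its day 5 level, and without it the day 15 mean was 296 ± 79.6 (n = 3) in place of 229 ± 148. In the 4 genotypes without added wild-type kay or KaySCR the mean was lower on day 15: the ratio to day 5 was 0.248 in the driver, 0.675 in KayKD, 0.463 in plain VAPWT and 0.555 in plain VAPP58S.

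CG34134 was also higher on day 15 than on day 5 in KayWT and KaySCR, but it was above the driver on both days. The driver held 14.7 to 16.9 CPM on day 5 and 9.34 to 16.6 on day 15, and all 3 arms lay wholly above these values. KayWT held 26.5 ± 7.34 CPM on day 5 and 99.4 ± 30.3 on day 15, and KaySCR stood at 24.6 ± 5.18 and 85.5 ± 42.8. These day ranges did not overlap in either arm, while KayKD held 40.4 ± 6.86 and 40.3 ± 13.2. The KaySCR library that was low for Achl was also the lowest for CG34134, at 32.4 CPM against 77.1 to 135 in the other 3. In plain VAPP58S at day 5, replicate 3 was the lowest library for both genes, with 148 CPM of Achl (other libraries 349 to 408) and 33.0 of CG34134 (other libraries 62.7 to 72.4). The correlation of their log2 levels was 0.775 over the 32 kay libraries and 0.486 over the 24 plain libraries. These libraries share groups and days, and this is a description.

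**Figure D2:**
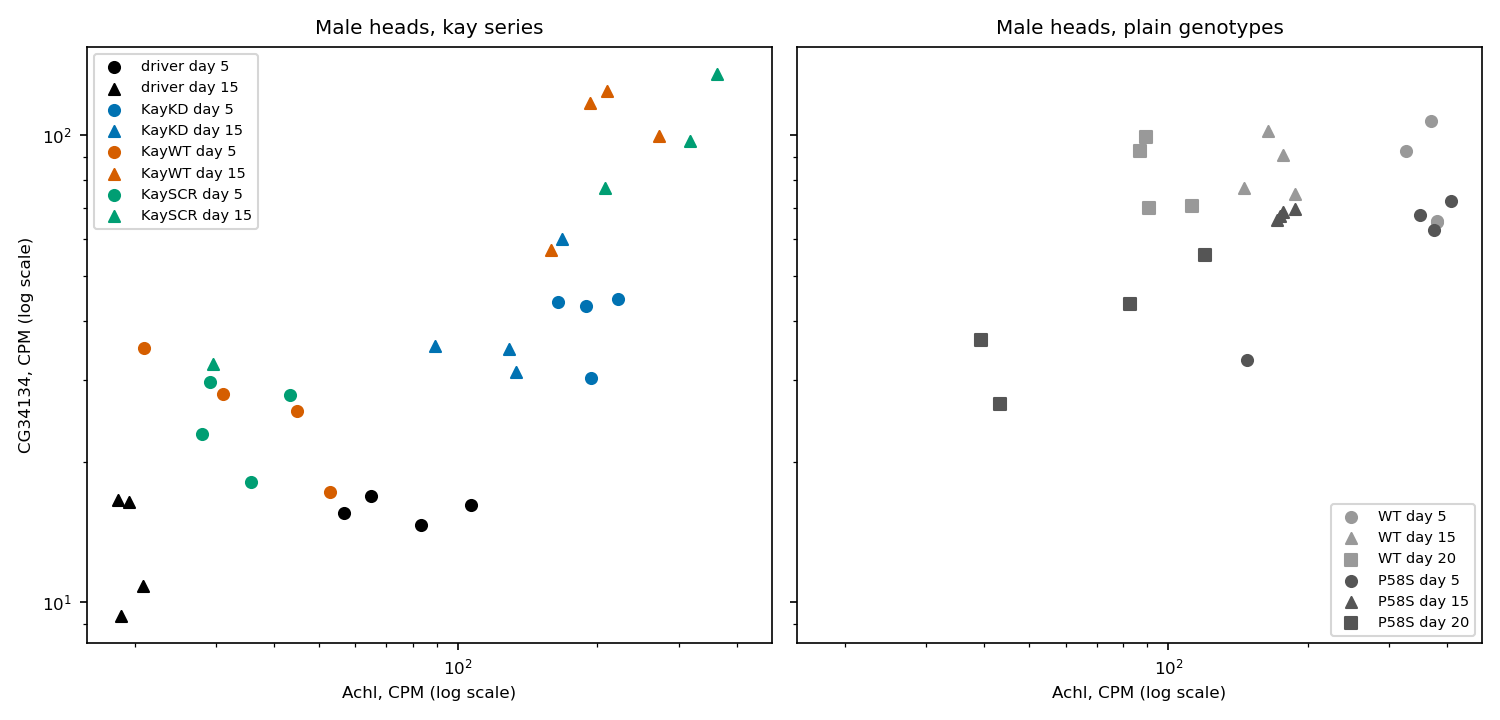
Achl (x axis) against CG34134 (y axis), both in CPM on log scales, with 1 point per male head library; the left panel shows the kay series and the right panel the plain genotypes. KayWT and KaySCR at day 15 lie at the upper right, apart from 1 KaySCR library at 29.6 and 32.4 CPM, and the driver lies at the bottom.

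The clock genes gave no call in the kay comparisons. Of 8 of them, edgeR called 0 in any arm on either day, with 0 to 2 at an unadjusted p under 0.05, and DESeq2 called 0. Over the 32 kay libraries, which share groups and days, the correlation of Achl was -0.11 with tim, -0.23 with per, -0.36 with vri and 0.20 with Clk. That of CG34134 was -0.42, -0.30, -0.35 and 0.43 with the same genes. In plain male heads edgeR called 0, 2 and 3 of the 8 for P58S against WT on days 5, 15 and 20. Of all genes 1.95%, 1.02% and 1.76% were called. On day 15 tim and vri were lower in VAPP58S (log2 differences -1.48 and -1.23). On day 20 they were higher (1.08 and 1.11) and Clk was lower (-0.86). Ageing to days 15 and 20 gave 3 and 2 calls in VAPWT, beside 12.4% and 10.6% of all genes. It gave 2 on each day in VAPP58S, beside 13.5% and 16.0%. The part of the clock in the levels of Achl and CG34134 was not tested. Of 14 antimicrobial peptide genes, edgeR called 3 in KayWT at day 5, all lower, beside 5.59% of all genes. CecA1 fell by a log2 difference of 3.99 (SE 1.03), CecA2 by 4.47 (SE 1.12) and AttC by 3.20 (SE 0.85). Each of these calls was lost in 2 to 4 of the 8 fits without 1 library, driver replicate 3 among them, with adjusted p of 0.0585 to 0.0629 without it. In KaySCR at day 5 edgeR and DESeq2 called 0 of the 14, with 4 at an unadjusted p under 0.05. In KayKD at day 5 edgeR called 0, with 3 at an unadjusted p under 0.05, and DESeq2 called 2. On day 15 edgeR and DESeq2 called 0 in KayKD, KayWT and KaySCR, with 1, 3 and 7 at an unadjusted p under 0.05. Their relation to Achl was not tested.

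CG40472 was higher in every arm at a nearly constant level. Means lay between 46.2 ± 6.09 and 54.4 ± 4.18 CPM over the 6 arm groups. The driver held 21.4, 29.5, 2.0 and 10.8 CPM on day 5 and 22.9, 20.6, 13.4 and 20.4 on day 15. All 24 arm libraries, at 38.1 CPM or more, lay above all 8 driver libraries. Plain heads, with 16.7 to 31.0 CPM, also lay below the arms and overlapped the driver. Its paralogue ND-AGGG, which encodes the complex I subunit, had a log2 difference from the driver of -0.50 (SE 0.13, adjusted p = 0.0228) in KayKD at day 5, a call lost in 5 of the 8 fits without 1 library. In the other 5 comparisons its log2 difference lay between -0.06 and 0.20, with adjusted p of 0.648 or more.

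CG34456 and CG11893 separated the arms from each other. CG34456 stood at 48.6 ± 9.68 and 35.8 ± 1.20 CPM in KayWT on days 5 and 15, and at 24.8 ± 4.08 and 40.5 ± 7.24 in KaySCR. In KayKD it held 12.6 ± 6.76 and 11.2 ± 2.38, next to 5.35 ± 1.14 and 11.1 ± 4.59 in the driver. KayWT and KaySCR libraries lay above every driver, KayKD and plain library, of which the highest held 19.4 CPM. CG11893 had its highest levels in the KaySCR arm, whose 8 libraries held 19.8 to 36.5 CPM, and no other male library exceeded 16.3. Driver libraries held 0.725 to 3.03 CPM of CG11893 on day 5 and 3.63 to 7.47 on day 15, and plain heads 6.11 to 14.8. On day 5 the means of KayKD (6.00 ± 6.96 CPM) and KayWT (6.75 ± 3.47) also lay above the driver mean of 1.94 ± 1.09, with libraries that overlapped the driver. On day 15 KayKD held 6.49 ± 0.676 and KayWT 5.21 ± 1.17, beside 5.66 ± 1.59 in the driver.

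The EcKL family was not raised as a group with CG11893. Of 49 other family genes 37 were tested. In KaySCR edgeR called 1 on day 5 (CG9497, log2 difference 0.69, SE 0.19, adjusted p = 0.0365, lost in 5 of 8 fits without 1 library) and 0 on day 15, with 6 on each day at an unadjusted p under 0.05 and 2 and 1 by DESeq2. Their median log2 difference was -0.20 on day 5 and 0.07 on day 15, beside 0.02 and -0.00 over all genes. The shares called of all genes on days 5 and 15 were 2.6% and 0.868% in KaySCR and 5.59% and 1.48% in KayWT. In KayWT, where CG11893 did not stand apart, edgeR called 2 of the 37 on each day. CG16898 rose by 2.15 on day 5 (SE 0.42, adjusted p = 0.002) and CG9497 by 0.96 on day 15 (SE 0.19, adjusted p = 0.0029). Both calls held in all 8 fits without 1 library. CG9497 also rose by 0.68 on day 5 (adjusted p = 0.0236), and CG1561 fell by 0.46 on day 15 (adjusted p = 0.0233). Each of these calls was lost in 5 of the 8 fits. In KayKD edgeR called 0 on both days, with 5 and 8 at an unadjusted p under 0.05, and DESeq2 called 1 on each.

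CG43402 and CG16926 differed from the driver at 1 day more than at the other. CG43402 in the driver held 30.3 to 45.3 CPM on day 5 and 2.55 to 5.5 on day 15. The arms held 15.6 to 59.0 CPM on day 5 and 17.8 to 28.8 on day 15, so that every arm library exceeded the driver at day 15 but not at day 5. CG16926 behaved in the reverse order. Its driver libraries held 9.43 to 27.9 CPM on day 5, below all 12 arm libraries at 43.7 to 129. On day 15 the driver held 42.0 to 45.2, within the span of KayKD (22.6 to 46.3) and KayWT (35.8 to 74.6) and below KaySCR (55.1 to 95.4).

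S-Lap1 rested on 1 library. Replicate 4 of the KayWT arm at day 5 held 628 reads, or 74.5 CPM, and the other 3 libraries of that group held 1.5, 2.69 and 1.89 CPM. In the other 31 kay libraries the level was at most 4.93 CPM. Without that library the KayWT mean on day 5 was 2.03 ± 0.607 CPM (n = 3) in place of 20.1 ± 36.2, against 0 to 1.21 CPM in the driver. Of 21 other testis genes 19 had their highest level of the 32 libraries in that library. Their summed level was 477 CPM there and 1.36 to 21.7 in the other 31. Among them were Mst84Da at 65.9 CPM, the S-Lap1 relative S-Lap7 at 58.5 and dj at 52.9. Only 3 of the 21 passed the filter; edgeR called 0 of them in any arm on either day, with 0 to 2 at an unadjusted p under 0.05, and DESeq2 called 0. Whether that library held testis material was not tested beyond these values.

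**Figure D3:**
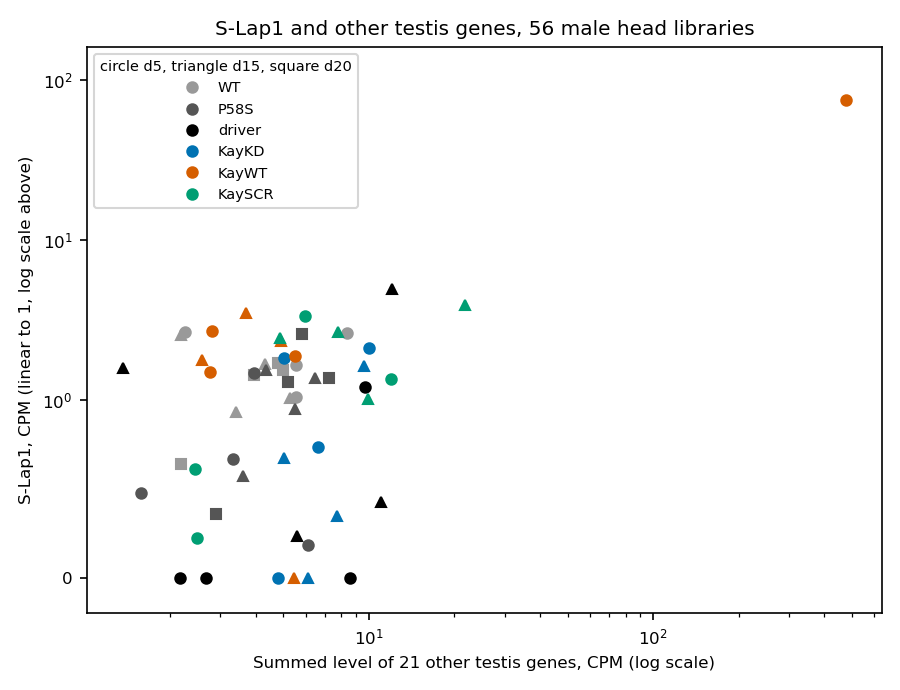
S-Lap1 (y axis, CPM, linear to 1 and log above) against the summed level of 21 other testis genes (x axis, CPM, log scale) in 56 male head libraries. A single library, replicate 4 of KayWT at day 5, stands at 477 CPM of testis genes and 74.5 CPM of S-Lap1.

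The driver control can also be set beside plain VAPP58S heads of the same day, as a view of the background on which the kay constructs were read. The levels come from 1 table but from different series, which may differ in batch. The driver also entered the choice of genes, so no test was made. On day 5 the driver lay wholly below plain VAPP58S for 4 of the 10 genes (Achl, CG34134, CG11893 and NimC1) and above it for CG43402, beside 5.09% and 3.75% of the 9523 genes tested in both series. On day 15 it lay below for 6, now with CG43402 and CG16926, and above for CG34456, beside 10.1% and 9.48%. Driver means were 0.244 of the plain VAPP58S mean for Achl on day 5 and 0.109 on day 15. For CG34134 they were 0.268 and 0.196 of it, and for CG11893 0.253 and 0.473. For some of these genes a higher value in an arm was near that of plain heads. On day 15 Achl held 178 ± 7.07 CPM in plain VAPP58S and 208 ± 47.2 in KayWT. Others were not near it: CG34134 was 0.418 of the plain VAPP58S mean in KaySCR on day 5. In KayKD on day 15 it was 0.595 of that mean, and both groups lay wholly below plain VAPP58S. CG11893 in KaySCR was 3.25 and 2.69 times the plain VAPP58S mean on days 5 and 15. Several genes stood above plain VAPP58S in all libraries of both days: CG34456 and CG40472 in all 3 arms, CG43402 in KayKD and KayWT, CG11313 in KayKD, and CG11893 and CG16926 in KaySCR. On day 5 the arms KayKD, KayWT and KaySCR lay wholly above plain VAPP58S for 4, 5 and 4 of the 10 genes (all genes 4.41%, 7.04% and 5.73%) and wholly below it for 0, 1 and 2 (6.37%, 6.69% and 4.79%). On day 15 they lay above it for 4, 3 and 5 (8.88%, 8.45% and 9.27%) and below it for 4, 1 and 0 (9.53%, 8.78% and 8.72%).

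The genes w and y, which mark fly stocks, also differed between groups, each with its own pattern. The eye pigment gene w, a copy of which marks many transgenes, stood at 0.729 to 5.06 CPM in the 12 plain VAPP58S libraries. The driver held 14.0 ± 8.65 CPM of w on day 5 and 10.9 ± 1.85 on day 15. In KayWT w was higher than in the driver by 1.06 on the log2 scale on day 5 (SE 0.27, adjusted p = 0.0137) and by 1.15 on day 15 (SE 0.26, adjusted p = 0.0146), by edgeR's quasi-likelihood test. In KaySCR it was higher by 1.18 (SE 0.27, adjusted p = 0.0121) and 1.12 (SE 0.26, adjusted p = 0.0252). In KayKD the differences were 0.28 and 0.32, with adjusted p of 0.643 and 0.723. The calls for w were lost in 1 to 5 of the 8 fits without 1 library, at day 5 without driver replicate 2 in both arms (adjusted p = 0.0955 and 0.0843). The body colour gene y had no read in any of the 8 driver libraries, 7 to 48 reads per arm group and 34 to 90 reads per plain group. The part of stock background in the differences of the 10 genes was not tested.

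Of 68 tested genes within 20 kb of the 10, 6 were called in at least 1 of the 6 kay comparisons (8.82%), against 9.52% of all 9796 genes. CG15120, which overlaps CG16926, rose in KayKD on both days (log2 differences 1.87, SE 0.53, and 1.99, SE 0.51) and in KaySCR on day 15 (2.25, SE 0.51). Near CG34456, the small heat shock protein gene Hsp67Bc fell in KayKD on day 15 by 1.59 (SE 0.32) and in KayWT and KaySCR on day 5 by 1.09 and 1.05. Hsp23 and CG4461, 2 other small heat shock genes there, were each called once and lower. Zasp66, a muscle Z-disc gene near S-Lap1, fell in all 3 arms on day 5, by 0.60, 0.92 and 0.67. Su(var)205, which encodes heterochromatin protein 1a and lies near CG34134, fell by 0.58 in KaySCR on day 5. Among these calls Hsp67Bc in KayKD and Zasp66 in KayWT held in all 8 fits without 1 library, and each of the others was lost in 3 to 6 of them. None of the 10 tested neighbours of NimC1, in the Nimrod cluster, was called, nor were the 16 around CG11893.

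JNK and AP-1 genes were looked at in the same comparisons. Of 14 pathway components 1 was called in 1 comparison, kay itself in KaySCR at day 5, beside 2.6% of all genes. On day 15, when 1.25%, 1.48% and 0.868% of all genes were called in KayKD, KayWT and KaySCR, 3 calls were among 11 tested target genes. Mmp1, a matrix metalloproteinase gene, rose in KayKD by 0.92 (SE 0.19, adjusted p = 0.0092), a call lost without replicate 4 of KayKD (adjusted p = 0.0833). In the same arm mol fell by 0.92 (SE 0.24, adjusted p = 0.0436, lost in 7 of 8 fits without 1 library). Thor, which encodes the translation inhibitor 4E-BP, fell in KaySCR by 0.84 (SE 0.19, adjusted p = 0.023, lost in 5 of 8). On day 5 GstD1, a detoxification gene, rose in KayWT by 0.46 (SE 0.12, adjusted p = 0.0196, lost in 2 of 8). It was the only target that edgeR called on day 5, when 3.58%, 5.59% and 2.6% of all genes were called in the 3 arms. The JNK feedback phosphatase gene puc had log2 differences of -0.22 to 0.39, with adjusted p of 0.21 or more.

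Some markers of glia, neurons and fat body were called in these comparisons. On day 5, 3.58%, 5.59% and 2.6% of all genes were called in KayKD, KayWT and KaySCR. On day 15 these shares were 1.25%, 1.48% and 0.868%. In KayWT at day 5, 3 of 13 tested glial and 2 of 8 neuronal genes were called. The glial identity gene repo gave adjusted p of 0.27 or more in all 6 comparisons. Of 13 tested glial genes, nrv2 fell by 0.69 (SE 0.12) and wrapper rose by 0.79 (SE 0.18) in KayWT at day 5, and both held in all 8 fits without 1 library. Tret1-1 rose by 0.48 there, and Eaat1, a glutamate transporter gene, fell by 0.54 in KayKD at day 15, calls lost in 6 and 7 of 8. Of 8 neuronal genes, the synaptic vesicle gene Syt1 fell on day 5 in KayWT by 1.28 (SE 0.16) and in KaySCR by 1.06 (SE 0.16), held in all fits, and in KayWT on day 15 by 0.67, lost in 4 of 8. The active zone gene brp fell by 0.41 in KayWT on day 5, lost in 5 of 8. Of 6 fat body genes 3 rose in KayKD on day 5: Desat1 by 0.51 (SE 0.10), held in all fits, the lipase gene bmm by 0.73, lost without driver replicate 2 (adjusted p = 0.0718), and Lsp2 by 2.43, lost in 7 of 8. bmm also rose in KayKD on day 15 by 0.72 and Lsp2 in KayWT on day 5 by 2.44, lost in 4 and 6 of 8. The part of these tissues in the levels of the 10 genes was not tested.

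By correlation of log2 CPM over the 32 kay libraries, the gene most like CG40472 was CG6180 (r = 0.878), and that most like CG11313 was Pepck2, a gluconeogenesis enzyme gene (0.871). CG34215 was most like CG34456 (0.869), Non1 most like NimC1 (0.83) and CG6426 most like CG16926 (0.820). S-Lap1 went with Pen (0.797), CG34134 with Svil (0.785), CG43402 with TpnC25D, a troponin C gene (0.757), and CG11893 with CG31548 (0.710). For Achl it was CG34134. Over the 24 plain libraries these pairs gave r of -0.10 to 0.52, each below its value in the kay series. These are correlations over libraries that share groups, with no test. That of S-Lap1 includes the library at 74.5 CPM, where the other 31 held at most 4.93, and r without it is not given here.

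The plain genotypes allow tests that the choice of genes did not use. In male heads 9 of the 10 genes passed the filter, among 9741 genes. P58S against WT gave 0 called members on day 5, with 2 at an unadjusted p under 0.05, and 0 on day 15, with 1. DESeq2 also called 0 on both days. The shares called of all genes were 1.95% and 1.02%. On day 20 edgeR called 2 of the 9, against 1.76% of all genes. CG34134 held 83.1 ± 15.1 CPM in VAPWT and 40.5 ± 12.1 in VAPP58S, and it fell by 1.02 on the log2 scale (SE 0.21, adjusted p = 0.0068), with all 4 VAPP58S libraries below all 4 VAPWT libraries. CG43402 held 5.63 ± 2.74 and 13.8 ± 3.52 CPM, a rise of 1.37 (SE 0.30, adjusted p = 0.0117), again with no overlap. The CG43402 call was lost without replicate 2 of VAPWT at day 20 (1.02, adjusted p = 0.0605) and without replicate 4 of VAPP58S at day 20 (1.26, adjusted p = 0.0588). The difference in the P58S effect between day 5 and later days was called for 0 of the 9 by edgeR, with 0 at day 15 and 1 at day 20 at an unadjusted p under 0.05, where 0.103% and 0.205% of all genes were called; DESeq2 was not run on it.

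**Figure D4:**
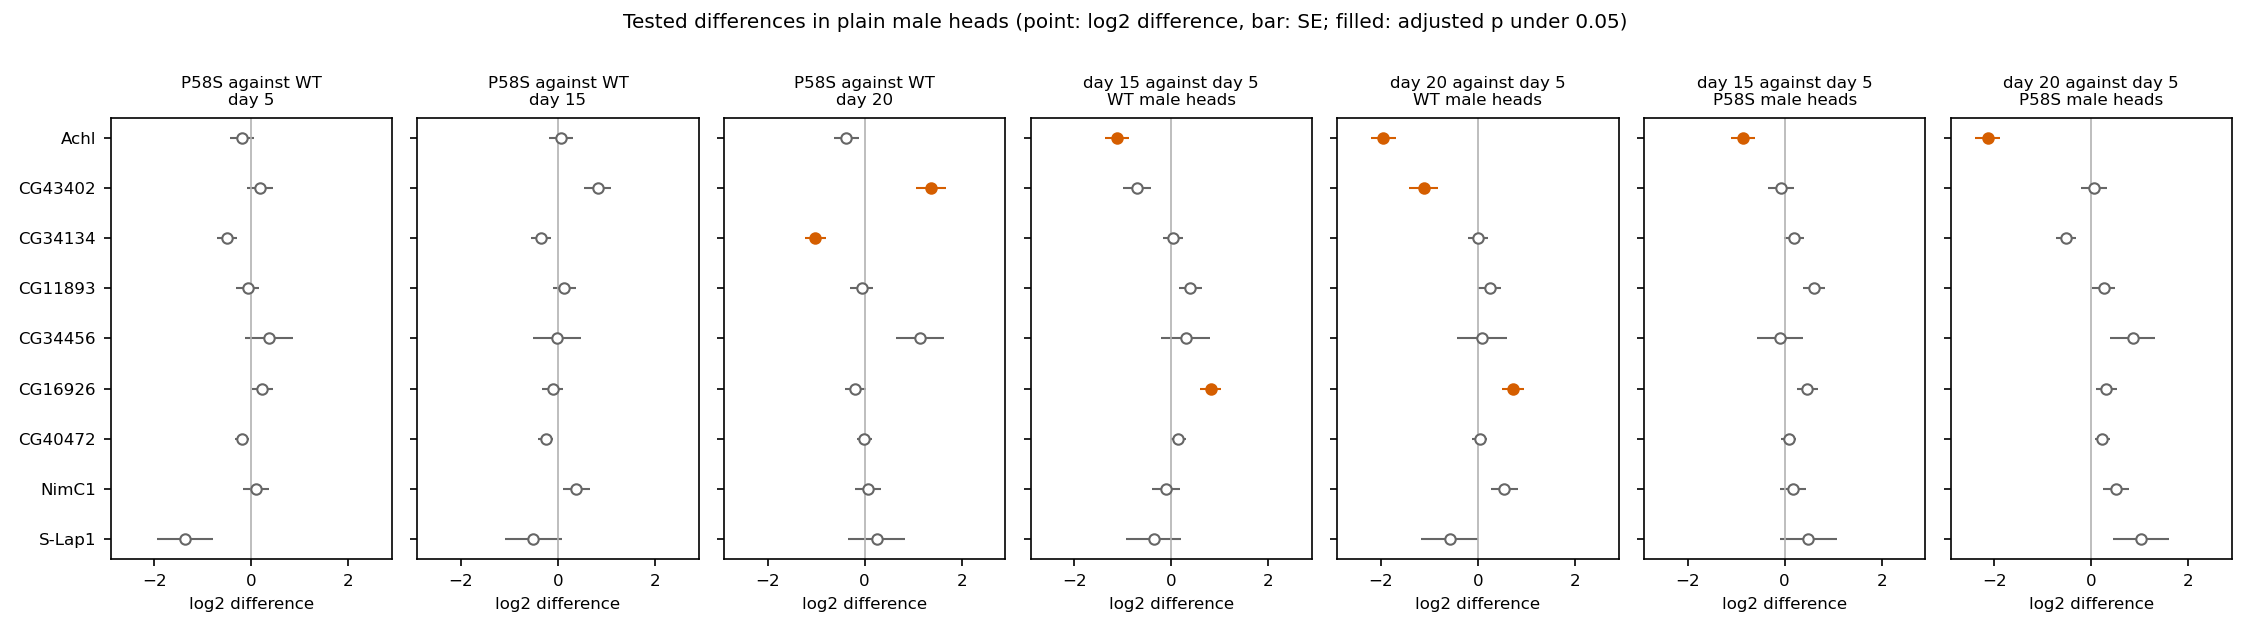
Tested log2 differences (x axis) of the 9 genes that passed the filter in plain male heads (y axis), for 7 comparisons; points are edgeR estimates, bars are SE, and filled points have an adjusted p under 0.05. Achl is lower at the later days in both genotypes, while CG34134 and CG43402 differ between the genotypes at day 20.

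Ageing in plain heads moved Achl most. VAPWT heads held 364 ± 25.6 CPM of Achl on day 5, 169 ± 18.0 on day 15 and 95 ± 11.9 on day 20. VAPP58S heads held 320 ± 117, 178 ± 7.07 and 71.3 ± 37.9. In VAPWT it fell by 1.12 (SE 0.25, adjusted p = 0.0037) to day 15 and by 1.95 (SE 0.26, adjusted p = 1.1e-05) to day 20, and in VAPP58S it fell by 0.86 (SE 0.25, adjusted p = 0.0203) and fell by 2.14 (SE 0.26, adjusted p = 3.2e-06). The VAPP58S call at day 15 was lost on leaving out any 1 of 5 libraries: replicate 1 or 2 of day 5, or replicate 1, 2 or 3 of day 15, with adjusted p of 0.0511 to 0.068. The driver heads, too, held less Achl on day 15 than on day 5, as given above, whereas KayWT heads held more.

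Among the other genes CG16926 rose in VAPWT heads by 0.81 to day 15 (SE 0.22, adjusted p = 0.0171) and by 0.73 to day 20 (SE 0.22, adjusted p = 0.0349). Its call at day 15 was lost without replicate 1 of VAPWT at day 15 (0.62, adjusted p = 0.0917) or without replicate 1 or 2 of day 5 (adjusted p = 0.0543 and 0.0527). The call at day 20 was lost without any 1 of 6 of the 8 libraries, with adjusted p up to 0.103. CG43402 fell in VAPWT heads by 1.12 to day 20 (SE 0.30, adjusted p = 0.015), a call lost without replicate 2 of day 20 (-0.77, adjusted p = 0.0816). In all, 2 and 3 members were called in VAPWT at days 15 and 20, beside 12.4% and 10.6% of all genes, and 1 at each day in VAPP58S, beside 13.5% and 16.0%.

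In females 8 of the 10 genes passed the filter in each tissue, and CG11313 and S-Lap1 did not. Limma called 0 of them for P58S against WT in heads at days 5 and 20 and in guts at days 5 and 20, with 2 at an unadjusted p under 0.05 in each comparison, and edgeR on recovered reads also called 0. The shares called of all genes were 0.0519%, 0.0311%, 0.133% and 0.365%. CG11893 had 0 to 6.30 CPM in VAPWT and 7.05 to 11.1 in VAPP58S heads at day 5 (log2 difference 2.51, SE 0.81, adjusted p = 0.236). Without replicate 1 of VAPWT at day 5 that difference was 3.22 with an adjusted p of 0.0236. Replicate 2 of the same group held only 0.201 M reads, and the median log2 difference of all genes there was 0.65. In guts Achl stood at 0 to 5.12 CPM and NimC1 at 0 to 2.81, against 0 to 104 and 0 to 23.2 in female heads.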

How the data were processed

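RNA of whole heads and guts was prepared by manual phenol-chloroform extraction and sequenced from the 3′ end, with different 3′ library kits for males and females, per the labels' protocols. The male table holds raw read counts per feature, deposited by the authors for 23996 features, of which 17830 are genes; reads are on dm6 per the submitters' processing notes, and for the aligner, counter and annotation no name was given in the sources used here. Of the gene IDs 17751 matched the reference annotation. Features other than genes held at most 0.26% of reads and were left out. The female tables are named CPM, but the deposited values are log2 values of CPM plus an offset, with a floor of -0.49 in heads and -1.34 in guts; they were converted back to CPM by subtracting the floor, and 100% of positive values then were whole reads within 0.1 read. The planned test on log2(CPM + 1) was kept.

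Plain male heads and the kay series were fitted apart with edgeR 4.0.16 (TMM, filterByExpr, quasi-likelihood test). Females were fitted with limma 3.58.1 (trend, at least 1 CPM in at least 4 libraries, pseudocount 1). The pseudocount can shrink differences of low genes, but means of log2 values can also differ from mean CPM in size and sign. In female heads at day 5 CG40472 averaged 14.4 CPM in VAPWT and 12.2 in VAPP58S, with a log2 difference of 0.73. P-values were adjusted by Benjamini-Hochberg over all genes of a fit, with a threshold of 0.05. The SE of an edgeR difference is its size over the square root of F. R 4.3.3 and DESeq2 1.42.0 were used, and tables and figures were made in Python 3.11.15. Tests stay within one series, since series may differ in batch. Depth ran from 0.201 to 6.82 M reads (M for 1e+06) in female heads and 0.937 to 9.46 M in guts. The 3-read floor of a 0 covers counting error only. No pair of libraries of a group, 84 in males and 48 in females, agreed within sampling noise.

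The 10 members, the marker lists and the alternatives were chosen with earlier results of these data known. Besides the members, the text names kay and other check genes, called list genes, called neighbours within 20 kb, and the gene most correlated with each member; ND-AGGG, the single clock genes, Hml and y, and genes of the testis library, were added after their values were seen. A list of accessory gland genes had no tested gene. Alternatives were other count models, filters, library sizes, pseudocounts, windows and blocks, and each library left out in turn. The scripts were tested on simulated counts.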

Additional observations from a re-analysis of the deposited data

Results flagged for a closer look

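A library standing far from the other 3 of its group was found in 23 of 193 groups of 4. The rule was that the gap to the next library divided by the range passed Dixon's limit. For independent, normally distributed values chance would give about 1 in 20, or 9.65. Low read counts do not have that shape and the 10 genes share libraries, so an excess cannot be read from this. Several of the 23 were flagged because the other 3 libraries held 0, as for NimC1 in the day 5 driver. The other 27 groups, whose highest library held 3 reads or fewer, were not looked at.

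In the kay series the S-Lap1 value of 74.5 CPM in replicate 4 of KayWT at day 5 stood above 1.5 to 2.69 in the others. CG11893 was high in replicate 2 of KayKD at day 5 (16.3 CPM, others 1.59 to 4.03), and CG34134 was high in replicate 3 of KayKD at day 15 (59.9) and low in replicate 4 of KayKD at day 5 (30.2). In the driver the high libraries were replicate 3 for CG43402 at day 5 (45.3) and for CG16926 at day 15 (45.2), replicate 1 for NimC1 at day 5 (0.705) and replicate 2 for S-Lap1 at day 5 (1.21).

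In plain male heads CG34456 was high in replicate 2 of VAPWT at day 15 (8.69 CPM), Achl in replicate 4 of VAPWT at day 20 (113) and CG40472 in replicate 1 of VAPP58S at day 15 (26.5). CG11893 was low in replicate 2 of VAPP58S at day 20 (6.50, others 9.96 to 10.1).

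In female heads replicate 1 of VAPWT at day 5 was the library with CG11893 (6.30 CPM) and S-Lap1 (3.01), and replicate 3 of VAPWT at day 20 that with CG34456 (4.16) and S-Lap1 (7.72); the others were at 0. In guts of VAPWT, replicate 4 at day 5 was high for CG34134 (3.01) and NimC1 (0.633), and replicate 1 at day 20 for NimC1 (2.81). In guts of VAPP58S, Achl was high in replicate 2 at day 5 (5.12), CG34134 in replicate 2 at day 20 (4.03) and NimC1 in replicate 4 at day 20 (1.14), and CG43402 was low in replicate 2 at day 20 (5.37).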

How the results depend on the processing

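Counts of all genes called by edgeR stayed within 1.5 times without a low-count filter and with all features in the library size. Fitting only the 2 groups compared gave, for P58S against WT at days 5, 15 and 20, 40, 154 and 287 genes in place of 190, 99 and 171; for ageing of VAPP58S 625 and 814 in place of 1318 and 1558; for day 5 of KayKD, KayWT and KaySCR 72, 93 and 33 in place of 351, 548 and 255; and for KaySCR at day 15 186 in place of 85. DESeq2 called 309, 154 and 257 for P58S, 239 in place of 122 for KayKD at day 15, and 442 and 152 for KaySCR. In female heads at days 5 and 20, log2(CPM + 0.1) gave 2 and 0 in place of 5 and 3, and edgeR on recovered reads, added after seeing the data, 18 and 14; log2(CPM + 2) and no filter each gave 5 at day 20. In guts, log2(CPM + 0.1), no filter and recovered reads gave 7, 5 and 21 in place of 12 at day 5, and no filter 18 in place of 33 at day 20. A 10 kb window held 3 called neighbours in place of 6. The cause was not tested.

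Leaving out each library in turn gave 91 to 365, 69 to 87 and 107 to 148 genes for P58S; 764 to 1115 and 709 to 954 for ageing in VAPWT; 859 to 1739 and 1020 to 1574 for ageing in VAPP58S; 172 to 629 and 59 to 132 for KayKD; 253 to 1092 and 76 to 122 for KayWT; 96 to 690 and 54 to 87 for KaySCR; 0 to 384 and 2 to 5 in female heads; and 5 to 10 and 22 to 40 in guts. The highest kay counts came without driver replicate 1 of day 5.

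Same-numbered libraries did not deviate together in the median (r -0.02 in plain heads and 0.00 in the kay series). Single values of r ran from -0.25 to 0.26 in plain heads and from -0.40 to 0.31 in the kay series. A median cannot show whether some of these libraries are paired. A replicate block gave 0 in place of 5 in female heads at day 5 and otherwise stayed within 1.5 times (318 and 96 for KayKD, 515 and 133 for KayWT, 235 and 87 for KaySCR).

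Among the P58S and ageing differences of the 10 genes, 14 were called in at least 1 setting; over their alternatives 157 values kept their side of the threshold, 17 lost the call, 8 gained it and 0 changed sign. The other such differences were called in no setting. Of the descriptive differences from the driver 40 moved by more than the spread and 731 did not; S-Lap1 in KayWT at day 5 went from 5.79 to 2.47 on the log2 scale without replicate 4. Of 49 calls named for other genes in the kay series, 10 held in every fit without 1 library. Depth limits CG11313, NimC1 and S-Lap1 most, since a 0 allows up to 2.49 CPM in the shallowest kay library and 15.0 in the shallowest female head library.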
